A study of Arabidopsis thaliana with 12 samples.

Results

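The interval from day 2 to day 4 of synchronised flower formation in Arabidopsis thaliana was measured on 4 of the 12 arrays of a time course, those that carried RNA of both days. In each of the 4 replicate sets, day 4 RNA and day 2 RNA were hybridised together to a custom Agilent array, and the unit described is the ratio of day 4 over day 2 at every locus. The array holds probes for 28327 loci, of which 20906 were bright enough at any time point of the course to be tested. A gene bright enough only on day 2 or only on day 4 entered through that day. This favours a difference between the days, so counts refer to the loci tested. Both days carried the pAP1:AP1-GR transgene in the ap1-1 cal-1 double mutant, and inflorescences were treated daily with 2 µM dexamethasone, so that day 4 and day 2 plants differed only in the time since the first treatment as far as the labels go. The AP1 promoter drives the fusion of APETALA1 with the glucocorticoid receptor, the tissue of several plants was pooled for a sample, and no day 4 or day 2 sample without dexamethasone was among the arrays. A change between the days therefore cannot be told apart from a change with repeated treatment or with the age of the plants, and in whole inflorescences more cells of a type cannot be told apart from more RNA per cell.

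In this mutant background the inflorescence meristem makes further meristems in place of flowers, and activation of AP1-GR by dexamethasone sends these meristems into flower formation together. During the early stages the sepal primordia arise first, and organ identity genes of the MADS family mark out the whorls in which petals, stamens and carpels follow. Organ boundaries, upper and lower organ faces and the first specialised epidermal cells are then laid down as the organs grow out. Day 2 corresponds to floral meristems and day 4 to meristems in which the organs are being specified.

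Detection and replicate agreement were checked on all arrays first. Each channel of the 4 arrays had between 56.7% and 60.8% of its probes well above background, no probe was saturated, and the log2 ratios of 2 arrays correlated across probes with r between 0.66 and 0.78, where probes are not independent replicates. Sets 1 and 2 lay on 1 slide and sets 3 and 4 on another, and day 4 was labelled with Cy5 in sets 1 and 3 and with Cy3 in sets 2 and 4. All 9 meristem markers (STM, LFY, AP1, CAL, WUS, CLV3, KNAT1, FD and PNY) were well above background on 4 of 4 arrays at day 4 and at day 2. None of the 4 root hair genes, none of the 4 seed storage genes and not the senescence gene SAG12 was well above background on any array on either day. Of the 4 late pollen genes only AT1G23800 was detected, at day 4 and at day 2 alike. Probes for AP1 may measure the transgene as well as the mutant gene, and AP1, which was not called, had a change of 0.14 ± 0.09 (log2, SE) from 4 arrays that ranged from -0.27 to 0.33.

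Between day 2 and day 4 more genes fell than rose, and the falls were larger. A gene was called when at least 1 of its probes changed by 1.8-fold or more with an adjusted p below 0.05 (limma, Benjamini-Hochberg over all probes tested), and all changes below are log2 ratios of day 4 over day 2 of the brightest probe, with the standard error of the fit. In all, 1911 of 20906 loci were called (9.14%), 702 of them higher at day 4 (3.36%) and 1209 lower (5.78%), and no gene had probes called in both directions. Among genes called by the brightest probe, the median increase of 675 genes was 2.21-fold and the median decrease of 1167 genes 2.93-fold. Only 75 of these increases reached 4-fold and 11 reached 8-fold, against 386 decreases of 4-fold, 134 of 8-fold and 38 of 16-fold. The direction was the same on all 4 arrays for 653 of the 675 genes called higher and for 1139 of the 1167 called lower. The mean of each slide had the sign of the call for all 675 and all 1167. Calling these genes from the same arrays made both agreements likely. On adjusted p alone, without the fold minimum, the balance was the other way, with 3448 loci higher (16.5%) and 2557 lower (12.2%). The median of all tested loci was 0.06. With the median of every array set to 0 the split at 1.8-fold was 621 higher and 1291 lower, and without the fold minimum it was 2564 higher and 2954 lower, an alternative chosen after seeing the data. The split also moved when ratios were rebuilt from the scanner signals, to 45 higher and 370 lower with normexp background correction and loess, 263 and 913 with loess alone, and 55 and 275 with normexp and median centring. With normexp and loess, which pull ratios of dim spots towards zero, 1840 of the 1842 genes called by the brightest probe kept their sign, but their median change shrank to 0.56, against 1.37 as deposited, and 404 were called. Genes described below that were still called there include REM22, SEP2, SEP3, AP3, FIL, TCP10, TMM, TEM2, ARGOS, ERF1, OXI1 and GSTU25, and most other developmental genes described below, WOX1, CRC, SUP, the NGATHA genes and EPF2 among them, were not.

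The 12 largest increases among genes well above background on at least 2 of 4 arrays of each day held several regulators of floral organs. WOX1, a homeodomain factor that promotes growth of the organ blade, had log2 ratios of 3.29, 3.48, 2.78 and 3.96 in sets 1 to 4, and its 3 probes gave changes between 3.28 and 3.38. CRC, a YABBY factor needed for carpel shape and nectaries, had 3.41, 2.05, 3.76 and 2.45, a change of 2.92 ± 0.21 (adjusted p = 1.31e-06). TGA9, a bZIP factor required in anther development, had 3.02, 2.96, 2.6 and 3.19, but 1 of its 4 probes gave -0.03 while its others reached 3.06. REM22, a B3-domain factor, rose by 3.00 ± 0.14 with every array at or above 2.23. All 4 arrays of these genes lay above zero, as the rule for this group required. CRC and REM22 were lower in sets 2 and 4 than in sets 1 and 3, and WOX1 was higher.

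The other genes of this group had metabolic, transport or stress roles. CKX1, which degrades cytokinin, had 3.01, 2.58, 2.70 and 3.56 (2.96 ± 0.18, adjusted p = 4.60e-07). EIR1, an auxin efflux carrier best known in roots, had 3.31, 5.09, 3.27 and 4.25 and was well above background on only 2 of 4 arrays at day 2. ERF53, a drought-responsive transcription factor, rose by 3.01 ± 0.22, and CORI3, a cystine lyase induced by coronatine, by 2.88 ± 0.23. PIP2B, a plasma membrane aquaporin, rose by 3.03 ± 0.27, although its near-identical neighbour RD28 may share its hybridisation signal. The loci AT5G62280, AT5G53710 and AT1G05540 carry no gene symbol, and they rose by 4.15 ± 0.39, 3.08 ± 0.65 and 2.91 ± 0.18. The arrays of AT5G53710 were the most spread of these, from 1.61 to 5.32.

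The 12 largest decreases included genes of defence, ethylene response and mitochondrial stress, and each fell on all 4 arrays, as the rule for this group required. ERF1, which integrates ethylene and jasmonate signals in defence, had -5.87, -5.07, -5.40 and -4.69 (-5.26 ± 0.36, adjusted p = 1.12e-06), with its other probes at -5.24 and -5.12. TDR1, another transcription factor of the ERF family, had -4.25, -5.66, -4.66 and -5.01. MAPKKK19, a protein kinase at the head of a MAP kinase cascade, had -4.98, -5.11, -5.31 and -4.45, a narrow spread at a change of -4.96 ± 0.23. PAD3, the cytochrome P450 that completes camalexin synthesis, had -4.52, -4.44, -5.06 and -4.84. As deposited, all of these arrays showed falls of more than 16-fold. Under other processing the smallest fitted changes were -3.35 for ERF1, -1.76 for TDR1, -2.54 for MAPKKK19 and -2.91 for PAD3. TDR1 was well above background on 3 of 4 arrays at day 4.

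AOX1D, an alternative oxidase of mitochondria, had -5.39, -5.33, -4.54 and -4.15. NIT4, a nitrilase, had -4.05, -4.98, -5.41 and -5.0. DIN11, a dark-inducible dioxygenase, fell by 5.23 ± 0.48, and PP2-B14, an F-box and phloem lectin family gene, fell by 4.57 ± 0.41. The loci without a symbol were AT2G23270 (-6.00 ± 0.38), AT1G76470 (-4.72 ± 0.54), AT2G04070 (-4.71 ± 0.54) and AT3G16530 (-4.57 ± 0.29). AT2G23270, AT1G76470 and AT2G04070 were each well above background on 2 of 4 arrays at day 4, which leaves the size of their decreases loosely fixed, and the arrays of AT1G76470 and AT2G04070 spread from -6.34 to -2.64 and from -6.37 to -3.30.

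**Figure D1:**
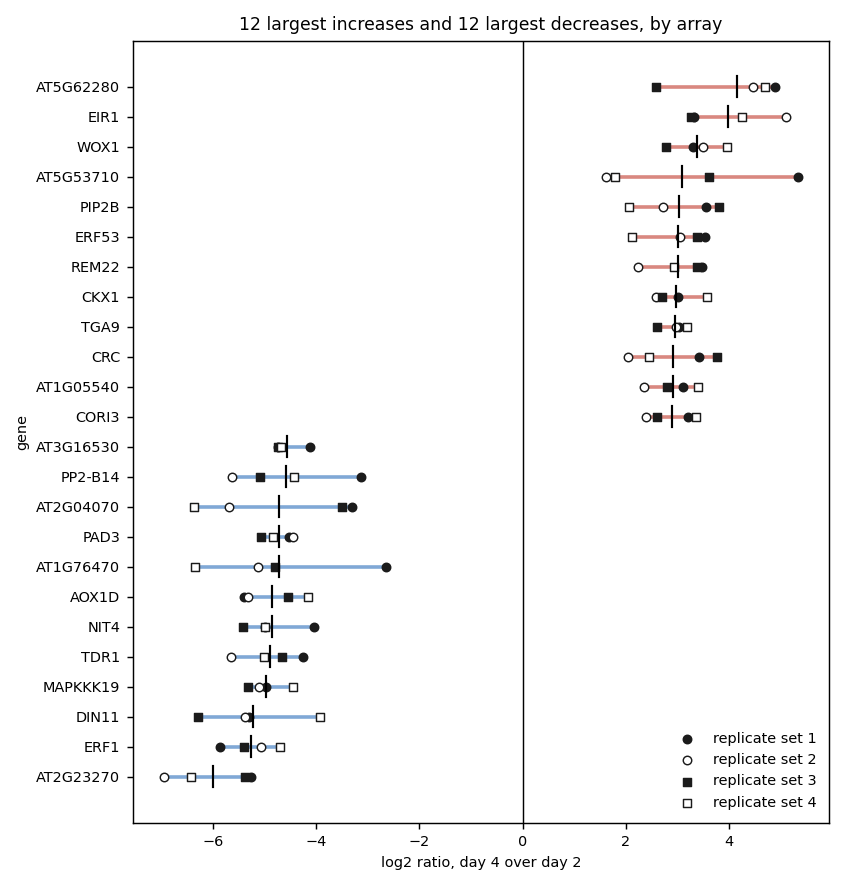
Log2 ratio of day 4 over day 2 (horizontal axis) on each array for the 12 genes with the largest increases and the 12 with the largest decreases among genes well above background on at least 2 of 4 arrays of each day. Circles and squares are the 4 replicate sets, filled where day 4 was in Cy5 and open where it was in Cy3, bars span the 4 values and vertical ticks mark the fitted change. Every array of WOX1 lies between 2.78 and 3.96, and every array of ERF1 between -5.87 and -4.69.

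Among organ identity genes, 5 of 13 tested rose and 1 fell, with a list median of 0.55 against 0.06 for all loci. Every list count below stands against 3.36% of all loci called higher and 5.78% called lower. SEP3, a cofactor for the other organ identity proteins, had log2 ratios of 1.66, 0.71, 1.67 and 1.04, and SEP2 had 1.03, 0.76, 0.80 and 1.09. SEP1 rose by 0.87 ± 0.11. AP3, needed for petals and stamens, rose by 1.05 ± 0.12 and AG, needed for stamens and carpels, by 1.02 ± 0.10. Set 2 was the lowest array for SEP1, SEP2, SEP3, AP3 and AG, and it gave 0.44 for AP3 and 0.50 for AG against at least 1.14 on their other arrays. PI, the partner of AP3, had a change of 0.55 ± 0.07 (adjusted p = 1.34e-04), and AP2, which acts in sepals and petals, one of 0.79 ± 0.08, so both passed the p threshold and missed 1.8-fold. STK, an ovule identity gene, was called lower (adjusted p = 0.0119), but it was not well above background on any array at day 4. Its mean channel levels put it 1.1-fold lower at day 4. Such level ratios compare mean per-channel levels after normexp and loess. The dim day entered at its own level, which in all cases given lay above the lowest signal well above background. Level ratios carry no error, are open to dye bias and are not lower limits. Other processing gave smaller changes for some genes, such as a log2 change of -0.07 for STK.

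The meristem lists had medians near that of all loci, with members that moved in both directions. Of 23 genes of meristem identity and flowering time, LMI1 and SMZ rose and TEM1 and TEM2 fell, with a median of 0.06, and on adjusted p alone 8 were higher and 5 lower. LMI1, a homeodomain activator of meristem identity, had 1.76, 0.76, 1.34 and 1.35. TEM2, a repressor of flowering, had -3.81, -2.77, -3.33 and -3.13, and its relative TEM1 fell by 1.30 ± 0.25. SMZ, another flowering repressor, stood at 0.71 by its brightest probe and was called through another probe, a call that ended without set 1.

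Of 17 genes of meristem maintenance, WUS and AIL7 were called lower and KNU higher (median -0.07), and on adjusted p alone 5 were higher and 7 lower. WUS, which keeps stem cells active, had -0.72, -0.82, -0.66 and -0.75 on its brightest probe and -0.97 and -0.95 on its others, so that its call came from the dimmer probes. AIL7, of the AINTEGUMENTA family, was called in the same way, with -0.83 ± 0.12 on its brightest probe. KNU, a zinc finger repressor of WUS, was not well above background on any array at day 2 and was detected on 2 of 4 arrays at day 4. Its log2 ratios were 2.84, 2.29, 3.09 and 2.41, and its level ratio was 1.08-fold. The values of WUS and KNU thus lay on opposite sides of zero on every array.

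In the boundary and polarity lists a minority of members was called. SUP, which limits the stamen whorl, had 2.84, 2.07, 2.66 and 2.81, and RBE, which acts between sepals and petals, had 1.77, 1.19, 2.07 and 1.66. They were the only called genes among 13 of the boundary list, whose median was 0.35. Of 20 genes of polarity and lamina, 5 rose and 1 fell (median 0.29). YAB2, YAB3 and FIL, YABBY factors of the lower organ face, rose by 1.47 ± 0.09, 1.14 ± 0.10 and 0.97 ± 0.11, and all 4 arrays of each were at or above 0.71. AS2, which acts on the upper face, had 0.76, 1.23 and 1.2 in sets 2, 3 and 4, its spot in set 1 having been marked as an outlier. INO, the YABBY factor of the ovule integument, was called lower at -1.42 ± 0.38 with arrays from -1.97 to -0.88.

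Among 18 genes of the carpel and style tested, 6 rose and none was called lower, with a list median of 0.28, and the 6 included the complete NGATHA family of B3-domain factors that direct style formation. NGA2 had log2 ratios of 2.22, 2.06, 2.36 and 2.45, NGA3 had 2.74, 2.48, 1.88 and 2.84, and NGA1 had 1.89, 1.44, 1.90 and 1.88. NGA4 was weaker and more variable, with 1.24, 1.55, 0.43 and 1.22 (1.11 ± 0.22, adjusted p = 0.00215). HEC2, a bHLH factor of the transmitting tract, was called higher but was never well above background at day 2. It was so on only 1 of 4 arrays at day 4, with a level ratio of 1.03-fold. Leaving out set 2 or set 3 ended its call, with fitted values of 0.93 and 1.03. Of 13 stamen and anther genes, SPL and TGA9 rose (median 0.16). SPL, also called NOZZLE and needed for sporogenous cells, had 4.87, 4.86, 5.20 and 3.44, but it was well above background on 4 of 4 arrays at day 4 and 1 of 4 at day 2, and its 3 probes differed, the others giving 2.56 and 4.13.

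Organ growth genes gave 9 increases and 1 decrease of 27 tested, with a median of 0.36. Class II TCP factors, which promote the transition from division to differentiation, made up 6 of the 9. TCP13 had 2.48, 2.08, 1.38 and 1.70, and TCP10 had 2.18, 1.46, 1.69 and 1.99. TCP5, TCP2 and TCP4 rose by 1.54 ± 0.22, 1.12 ± 0.09 and 1.03 ± 0.22. TCP3 stood at 0.80 on its brightest probe, was called through another probe, and lost that call without set 4, where the brightest probe gave 0.64. JAG and NUB, zinc finger genes that act together in petal, stamen and carpel growth, rose by 1.47 ± 0.16 and 1.48 ± 0.15. GRF8, a growth regulating factor, had 2.04, 1.44, 1.94 and 1.70. ARGOS, an auxin-inducible promoter of organ size, went the other way on every array with -2.94, -3.22, -3.53 and -3.87.

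All 14 genes of the stomatal lineage list had positive changes, where 60.9% of all tested loci did, with a median of 0.50, and 5 were called. These were genes of the early lineage. EPF2, the peptide that limits entry into the lineage, had 2.23, 1.65, 1.43 and 2.01, and TMM, a receptor for such peptides, had 1.61, 1.63, 1.35 and 1.87. BASL and POLAR, which mark 1 side of dividing stomatal precursors, rose by 1.43 ± 0.16 and 1.1 ± 0.15, and SPCH, the bHLH factor that starts the lineage, by 0.94 ± 0.11. STOMAGEN, a peptide that favours stomata, lay just under the fold minimum at 0.84 ± 0.18 (adjusted p = 0.00402). The later factors MUTE (0.40 ± 0.31) and FAMA (0.08 ± 0.33) were not called, and their arrays crossed zero. A single gene of 19 on the cell cycle list was called, against 9.14% of all loci, namely LGO, a CDK inhibitor that drives giant cell formation in sepals, with 1.54, 1.07, 1.40 and 1.55.

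Of 25 epidermis and cuticle genes, 5 rose and 1 fell (median 0.44). SHN1, an activator of cuticle formation, had 2.03, 2.32, 2.29 and 2.76. Its relative SHN2 had -0.82, -0.70, -1.96 and -2.18 and was called lower at -1.42 ± 0.23. The 2 slides thus differed for SHN2, with means of -2.07 on the slide of sets 3 and 4 and -0.76 on that of sets 1 and 2. MYB16, of conical petal cells, rose by 1.18 ± 0.14, and CER1, of alkane wax synthesis, by 1.00 ± 0.13. HTH, which prevents organ fusion, and LTP2, a lipid transfer protein, were called at 0.95 and 0.90, but HTH lost its call without set 4 (0.83) and LTP2 without set 2 (0.82) or set 3 (0.72).

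**Figure D2:**
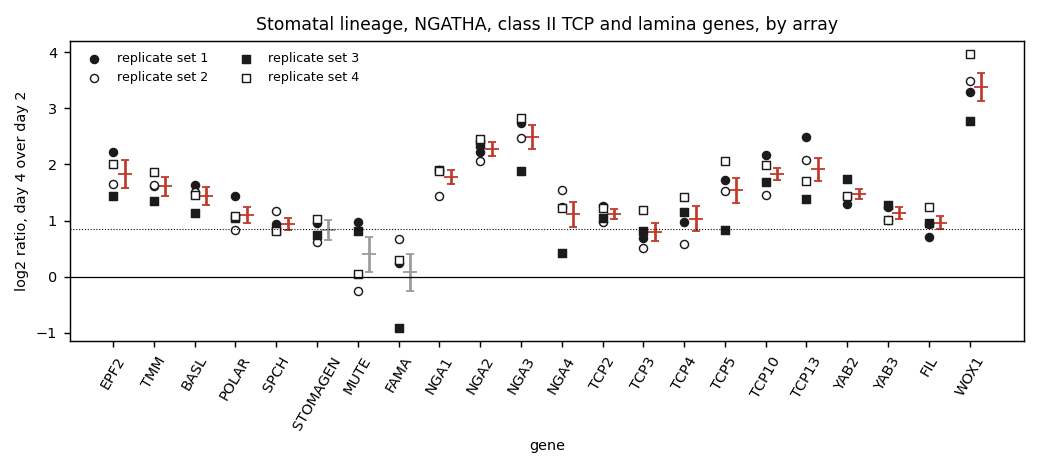
Log2 ratio of day 4 over day 2 (vertical axis) on each array for 22 genes of the stomatal lineage, the NGATHA and class II TCP families and the organ lamina. Circles and squares are the 4 replicate sets, filled where day 4 was in Cy5, horizontal ticks with bars give the fitted change ± SE in red for called genes and grey for the others, and the dotted line marks 1.8-fold. The early stomatal genes EPF2 and TMM lie at 1.83 and 1.61, while MUTE and FAMA have arrays on both sides of 0.

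Genes of hormone metabolism differed by hormone. Gibberellin genes had 5 increases and 1 decrease of 14 (median 0.36). GA3OX1, which makes the active hormone, had 3.22, 2.66, 2.80 and 2.23 and was well above background on 4 of 4 arrays at day 4 and 1 of 4 at day 2. GA20OX2, which acts a step earlier, rose by 1.12 ± 0.11, and GA20OX3 was called at 2.27 ± 0.52 with arrays from 0.27 to 4.76. Of the inactivating oxidases, GA2OX8 rose by 2.13 ± 0.23 and GA2OX6 fell by 3.01 ± 0.34, and RGL2, a DELLA repressor of the pathway, rose by 0.95 ± 0.07. Both synthesis and inactivation genes were therefore among those higher at day 4.

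Of 16 cytokinin genes, CKX1 rose and ARR3, a type A response regulator, was called lower. ARR3 (adjusted p = 1.24e-04) was well above background on 4 of 4 arrays at day 2 and on none at day 4. Its level ratio put it 1.11-fold lower at day 4. Of 25 auxin genes 1 was called, a smaller share than the 9.14% of all loci, the repressor gene IAA29, with -2.09, -1.57, -1.92 and -1.31. Jasmonate genes were split, with 3 increases and 4 decreases of 20 (median -0.36). LOX2, which starts jasmonate synthesis in leaves, rose by 1.32 ± 0.18, AOC1, of a later step, by 2.54 ± 0.46, and VSP2, a storage protein induced by jasmonate, by 0.99 ± 0.17. JAZ8 and JAZ1, repressors of the pathway that the hormone itself induces, fell by 2.08 ± 0.37 and 1.45 ± 0.31, and LOX4 by 1.49 ± 0.26. AOC3 was called at -1.21 and lost the call without set 2 (-1.04) or set 3 (-1.21).

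Every called aquaporin and every called expansin was higher at day 4. Of 26 aquaporins 9 rose and none fell, with a median of 0.27. RD28 had 3.18, 1.64, 2.94 and 1.64, with sets 2 and 4 below sets 1 and 3, and PIP2B showed the same order with 3.55, 2.72, 3.80 and 2.05. PIP2E, PIP2A and PIP1B, also of the plasma membrane, rose by 1.38 ± 0.08, 1.29 ± 0.11 and 1.18, and the tonoplast gene TIP2 by 1.00. PIP2;8 (0.89), TIP2;2 (0.93) and NLM1 (0.92) were called but lost the call without set 1 (PIP2;8 and TIP2;2), set 3 (NLM1) or set 4 (PIP2;8), with values then between 0.82 and 0.84. Of 18 expansins, which loosen walls during growth, 7 rose (median 0.45). EXP3 had 1.1, 1.51, 1.04 and 1.00, and EXPA15 had 1.34, 1.29, 1.31 and 0.67. EXPA8 and EXPA11 were never well above background at day 2 and had level ratios of 1.11-fold and 1.07-fold. EXPA5 lost its call without set 1 (0.85), and EXPA1 without set 1 (0.71) or set 2 (0.64).

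Of 25 xyloglucan endotransglucosylases, which rejoin wall polymers, 3 rose and 4 fell (median -0.12). XTH30 rose by 1.32 ± 0.21 and XTH10 by 0.98 ± 0.12, while the touch-inducible TCH4 was called lower at -1.86 ± 0.54, a call lost without set 1 (-1.73), set 2 (-1.64) or set 3 (-1.86). XTH13 was well above background on 4 of 4 arrays at day 2 and on none at day 4, with a level ratio of 1.16-fold. Its log2 ratios of -4.11, -3.07, -1.46 and -1.15 differed between the slides. Leaving out set 1 gave 3 called genes and leaving out set 3 gave 4, in place of 7.

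Most called members of the stress and defence lists were lower at day 4, and those lists were chosen with such results known. Of 18 genes of ethylene synthesis and stress-induced ERF factors, 11 fell and 2 rose, with a median of -1.70 against 0.06 for all loci. ERF2, an activator of defence genes, had -3.50, -3.59, -3.08 and -3.56, and ORA59, which joins ethylene and jasmonate signals, had -3.58, -3.62, -2.84 and -3.84. ACS2 and ACS6, which make the ethylene precursor, fell by 3.71 ± 0.26 and 1.77 ± 0.22, and a second probe of ACS2 gave -1.99. ERF1, described above, had the largest decrease of the list, and the remaining ERF genes that fell lay between -2.62 for ERF6 and -1.46 for ERF104, and ERF13 (-1.63) lost its call without set 1 (-1.48) or set 2 (-1.39). CBF1 and CBF3, regulators of the cold response, stood at 1.02 and 0.94 and were called higher, CBF1 only through a probe other than the brightest (whose adjusted p was 0.14). CBF1 was not called without set 1 (1.05), set 2 (1.04) or set 4 (0.62), nor CBF3 without set 1 (0.94) or set 3 (0.70).

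Calcium sensors and touch genes fell in 10 of 14 cases and rose in none, with a median of -1.89. CML12, which is TOUCH3, had -2.59, -3.30, -2.92 and -2.54, and CML37, a calmodulin-like protein induced by wounding, had -1.77, -2.11, -2.90 and -1.68. AT3G01830 had -1.55, -3.22, -2.86 and -2.12 on its brightest probe, while its second probe gave -0.33. CML43 was well above background on 4 of 4 arrays at day 2 and on none at day 4, and its level ratio put it 1.11-fold lower at day 4. The part of handling and repeated treatment in these values was not tested.

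Genes of oxidative and mitochondrial stress fell in 10 of 14 cases and rose in none (median -1.45). OXI1, a kinase activated by hydrogen peroxide, had -3.93, -3.48, -3.54 and -3.24, and OM66, an outer mitochondrial membrane ATPase, had -3.37, -3.31 and -2.94 in sets 1, 2 and 4. ZAT10 and ZAT12, zinc finger factors of stress responses, fell by 2.81 ± 0.33 and 2.07 ± 0.30. AOX1A, the major alternative oxidase gene, fell by 1.51 ± 0.21, a smaller change than that of AOX1D, and RBOHD, an NADPH oxidase that makes superoxide, by 1.17 ± 0.16. All arrays of these 6 genes lay at or below -0.90. Of 11 heat shock genes tested, HSP90.1 fell by 1.29 ± 0.14. HSP23.6-MITO was also called, with -4.07, -2.49, -0.92 and -0.81, and lost that call without set 1 (-1.40).

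Salicylic acid and defence genes fell in 5 of 10 cases tested, with a median of -1.04. PAD4, a regulator of salicylic acid signalling, had -1.79, -1.98, -1.89 and -1.95, which lay close together. SARD1 and CBP60G, which activate salicylic acid synthesis, fell by 1.8 ± 0.26 and 1.43 ± 0.28, and NIMIN1 and PR5, which are induced by the hormone, by 1.70 ± 0.11 and 1.84 ± 0.16. Of the WRKY family of transcription factors, 20 of 60 fell and 3 rose, and the median of the family was -0.22. WRKY40 had -3.21, -3.38, -3.67 and -3.30, WRKY33, a regulator of camalexin synthesis, had -2.63, -2.89, -2.84 and -2.72, and WRKY70, of salicylic acid defence, had -2.66, -1.81, -1.75 and -1.45. WRKY75 and WRKY30 fell by 3.27 ± 0.32 and 3.24 ± 0.32. The 3 genes called higher, WRKY10 (1.27), WRKY49 (0.90) and WRKY8 (0.76 on the brightest probe), lost the call without set 4 (WRKY10 at 1.01), without set 1, 3 or 4 (WRKY49 at 0.85, 0.95 and 0.65) and without set 2 (WRKY8 at 0.68). Of the 20 called lower, WRKY26 lost the call without set 1 (-1.12), 3 (-0.86) or 4 (-1.34), WRKY66 without set 1 (-0.95), 2 (-1.07) or 3 (-0.92), WRKY59, called through a dimmer probe, without set 1 (-0.34), 2 (-0.64) or 3 (-0.53), and WRKY72 without set 2 (-0.82).

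Glutathione S-transferases, which detoxify reactive compounds, fell in 16 of 39 cases and rose in 4 (median -0.63). The falls were 6 of 12 genes of the phi class (GSTF) and 10 of 25 tested of the tau class (GSTU), and the rises were 3 phi genes and 1 tau gene. Of the rises, GSTF12 lost its call without set 1, 3 or 4, and GSTU21 without set 1 or 3. GSTU25 had -3.81, -4.23, -4.15 and -3.87, GSTU9 had -3.17, -4.39, -4.34 and -4.62, and GSTU3, with the largest decrease among the tested members, had -4.19, -4.63, -5.34 and -4.09. GSTF7 and GSTF6 fell by 3.63 ± 0.29 and 3.41 ± 0.31. Near-identical pairs such as GSTF6 and GSTF7 or GSTU24 and GSTU25 may share hybridisation signal, so their separate values are uncertain. GSTF11, linked to aliphatic glucosinolate synthesis, was called higher at 1.93 with arrays from 1.08 to 2.49.

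As deposited, called genes of tryptophan-derived and methionine-derived defence compounds moved in opposite directions. Of 13 camalexin and glucosinolate genes, 6 fell and 4 rose. MYB51, a regulator of indole glucosinolates, had -3.55, -3.86, -3.67 and -3.69, and CYP71A13 and CYP71A12, a near-identical pair of the camalexin pathway, fell by 3.62 ± 0.31 and 3.34 ± 0.17. CYP79B2 and CYP83B1, of the indole pathway, fell by 1.99 ± 0.44 and 1.70 ± 0.34. MYB28, the regulator of aliphatic glucosinolates, had 1.17, 1.04, 1.00 and 0.97. Its call and those of CYP83A1, CYP79F1 and MAM1 were lost in every rebuild from the scanner signals. MYB28 then fell as low as 0.26. PAD3, MYB51 and CYP71A13 kept their calls there, while CYP71A12, CYP79B2 and CYP83B1 lost theirs where normexp was used. CYP83A1 (1.35), CYP79F1 (1.36) and MAM1 (2.02) of the same aliphatic pathway were called higher, but CYP79F1 and MAM1 each had 1 of 4 arrays at day 2 well above background and arrays that reached down to -0.02 and 0.23, and calls were lost without set 2 (CYP83A1 at 1.03, MAM1 at 1.46), set 3 (MAM1 at 1.68) or each of sets 1, 2 and 3 (CYP79F1 at 1.32, 1.22 and 0.99).

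**Figure D3:**
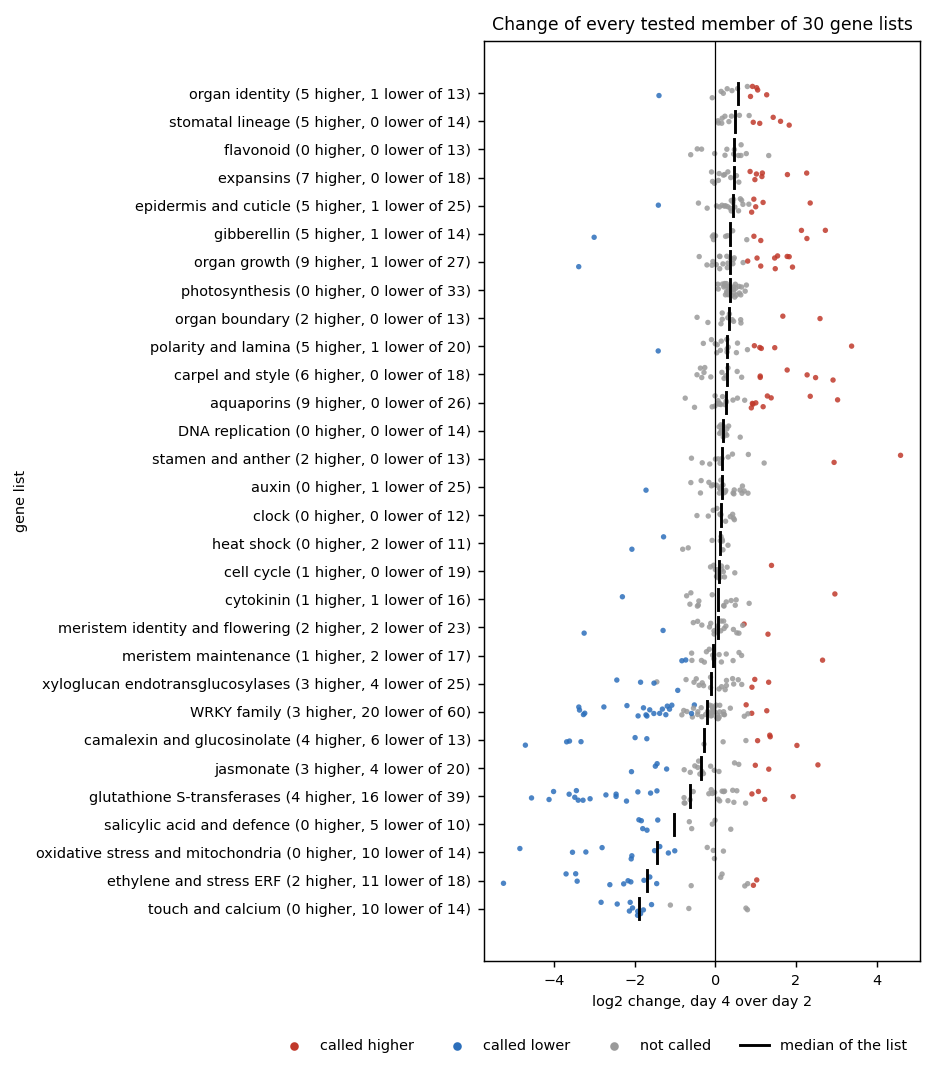
Log2 change of day 4 over day 2 (horizontal axis) of every tested member of 30 gene lists (rows), by the brightest probe. Red points are genes called higher at day 4, blue points genes called lower, grey points the others, and black ticks the list medians. These medians run from -1.89 for touch and calcium genes to 0.55 for organ identity genes. Changes of genes not above background on 1 day are fitted values and not level ratios.

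In some lists the fold minimum left no member called. Of all tested loci, 12736 of 20906 (60.9%) had positive changes, and 10876 did with array medians set to 0. All 33 nuclear photosynthesis genes had positive changes, from 0.06 to 0.77 with a median of 0.36, and none was called, while on adjusted p alone 24 were higher and none lower, or 18 with array medians set to 0, where 16.5% of all loci were higher on that criterion. All 14 DNA replication genes were also positive, from 0.09 to 0.61 with a median of 0.19, and 1 of them was higher on adjusted p alone, against 16.5% of all loci. Of 12 clock genes none was called, with values from -0.46 to 0.47, and on adjusted p alone 3 were higher and 2 lower. Of 13 flavonoid genes none was called either, although on adjusted p alone 4 were higher and 3 lower, and leaving out set 2 gave 2 calls.

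Detection on 1 day only was rare. By the brightest probe, 18161 loci were well above background on 4 of 4 arrays on both days and 7613 on none, and 21 loci were detected on all arrays of day 4 and none of day 2, against 46 with the opposite pattern. Of these, 19 of the 21 were called higher and 46 of the 46 lower, which their choice by detection made likely. ABCG35, an ABC transporter, had log2 ratios of 4.12, 3.83, 3.49 and 4.76 (adjusted p = 1.21e-06) and a level ratio of 1.75-fold. AT4G16270 had 4.81, 4.84, 6.09 and 6.28 and the same level ratio. The next day 4 loci by level ratio were AT4G16560 (1.26-fold), AT1G15160 (1.25-fold), the long non-coding RNA locus AT4G22233 (1.23-fold) and AT5G26290 (1.22-fold). On AT1G15160 set 3 gave 0.59, against at least 2.17 on the others.

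Of the genes detected at day 2 alone on these arrays, GSTL1, a lambda class glutathione transferase, had -3.71, -4.89, -5.35 and -5.08 (adjusted p = 4.17e-07). Its level ratio put it 1.78-fold lower at day 4. AACT1, an acyltransferase, had -5.02, -5.25, -6.11 and -3.80 (level ratio 1.59-fold), and ESE1, an ethylene- and salt-inducible ERF gene, had -3.18, -5.99, -3.95 and -3.41 (1.55-fold). By level ratio RAP2.9, also of the ERF family, was 1.5-fold lower, RLP7, a receptor-like protein, 1.48-fold, and GLIP4, a GDSL lipase, 1.47-fold. When the same day 4 extracts were hybridised with day 8, GSTL1 was again well above background on no array, while AACT1, ESE1, RAP2.9, RLP7 and GLIP4 were so on 1 of 4 each. Signals near background do not fix the size of a change, and the level ratios are far smaller than the deposited ratios. Over all loci of both patterns the level ratios ran between 1.05-fold and 1.78-fold.

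The interval differed from its neighbours at many loci. Within each replicate set the change from day 2 to day 4 was set against that of the step before, which began on day 0, and that of the step after, which ended on day 8, and the differences over the 4 sets were tested (limma, adjusted p below 0.05 and at least 1.8-fold). These steps share extracts, since day 2 RNA stands in both of the first and day 4 RNA in both of the last, so that an error in a shared extract enters both with opposite sign. By the methods of the study, day 0 material was mock-treated and collected right after that treatment. The step before thus also compares mock with dexamethasone treatment, and the part of this in the differences was not tested. The change differed from that of day 0 to day 2 at 4391 of 20905 loci (21.0%) and from that of day 4 to day 8 at 4618 of 20902 (22.1%). The loci called higher at day 4 had a median change of -0.16 from day 0 to day 2, 1.14 over the interval and 0.57 over the step after. The loci called lower had medians of 2.22, -1.55 and 0.89 over the same steps, while those of all tested loci were -0.10, 0.06 and -0.08.

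The largest differences from the step before were of genes that had first risen. PHT3;2, a mitochondrial phosphate carrier, changed by 10.1, -4.42 and 3.41 over the 3 steps in order, a difference of -14.5 ± 0.45 from the first step. AT2G23270 (-14.1 ± 0.25), AT3G16530 (-13.7 ± 0.19), ERF1 (-13.2 ± 0.22), AOX1D (-13.1 ± 0.27) and AT4G28460 (-12.9 ± 0.15) followed. In the other direction, AT4G16270 exceeded the step before by 5.87 ± 0.41, RTFL13, of the ROTUNDIFOLIA-like small peptides, by 5.45 ± 0.30 and AT5G62280 by 4.85 ± 0.77. SPL (4.59 ± 0.33), bHLH39, an iron deficiency factor (4.58 ± 0.39), and AT1G70270 (4.58 ± 0.24) were the other loci. These are fitted ratios whose size is not fixed for AT4G16270, which was well above background on no day 2 array, for SPL, which was so on 1, and for bHLH39, which was so on no array of either day. Between day 2 and day 4 itself bHLH39 stood at 0.90 ± 0.37 and was not called, and RTFL13 rose by 1.28 ± 0.26.

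Against the step that followed, ABCG35 stood 5.13 ± 0.35 higher, AT2G28780 4.80 ± 0.27, FTM1 4.32 ± 0.46, bZIP42, a bZIP factor, 4.22 ± 0.35, AT1G08440 4.13 ± 0.40 and AT4G14819 3.66 ± 0.42. FTM1, a stearoyl-ACP desaturase gene first described as a floral transition marker of the meristem, changed by -0.95, -1.09 ± 0.27 and -5.41 over the 3 steps, so that its positive difference came from a larger later fall. The call of FTM1 at day 4 was lost without set 2 (-0.93) or set 3 (-0.89). AT2G28780 changed by 1.02, 1.54 and -3.26 over the same steps. DIN11 (-12.7 ± 0.80), AT1G76470 (-11.7 ± 0.68), GSTU3 (-11.2 ± 0.30), AT1G10585 (-9.81 ± 0.31), NATA1, an ornithine acetyltransferase (-9.46 ± 0.45), and GSTL1 (-9.29 ± 0.27) had the largest fitted differences of the opposite sign. Of the loci in this comparison, ABCG35 and AT4G14819 were well above background on no day 2 array and GSTL1 on no day 4 array, so that their fitted sizes are not fixed either. NATA1 was so on no day 4 channel of these arrays, but on 4 of 4 when the day 4 extracts were hybridised with day 8. GSTU3 changed by 7.58, -4.56 and 6.63 over the 3 steps.

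Read along the 3 steps, several stress and defence lists had medians that were positive, negative and positive, and developmental lists did not share 1 pattern. The medians of all tested loci also changed sign at each step, but in the opposite order and near 0, at -0.10, 0.06 and -0.08. The list of ethylene and stress ERF genes had medians of 2.66, -1.70 and 0.98 for the steps ending on days 2, 4 and 8, touch and calcium genes 2.87, -1.89 and 1.91, oxidative and mitochondrial stress genes 4.01, -1.45 and 1.59, and glutathione S-transferases 1.43, -0.63 and 1.1. Jasmonate genes had 1.46, -0.36 and 1.90, salicylic acid and defence genes 0.87, -1.04 and 0.34, and the WRKY family 0.38, -0.22 and 0.14. Camalexin and glucosinolate genes had 0.67, -0.28 and 0.97. Heat shock genes had 0.39, 0.12 and 1.1, positive at every step. Organ identity genes had medians of 0.40, 0.55 and 0.42, and stomatal lineage genes -0.58, 0.50 and 0.68. Polarity and lamina genes had -0.09, 0.29 and -0.36, organ growth genes -0.24, 0.36 and -0.25, and organ boundary genes -0.39, 0.35 and -0.56. These lists were highest at the middle step, as was the median of all tested loci. Among single genes, SUP changed by 5.40, 2.59 and -0.70 and JAG by 4.44, 1.47 and -0.78, while CRC changed by -0.52, 2.92 and 3.18 and SHN1 by -0.78, 2.35 and 4.18.

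**Figure D4:**
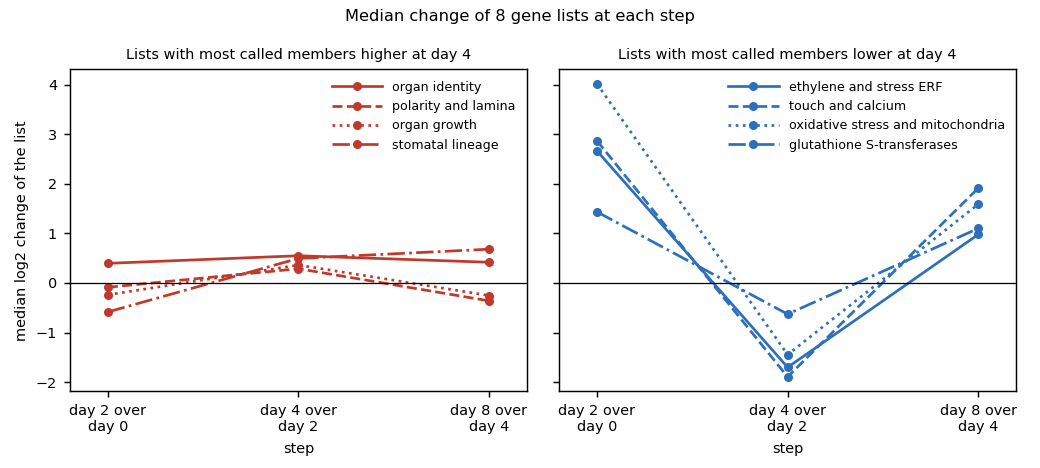
Median log2 change (vertical axis) of 8 gene lists at the steps day 2 over day 0, day 4 over day 2 and day 8 over day 4 (horizontal axis), each the later day over the earlier. The left panel holds lists whose called members were mostly higher at day 4 and the right panel lists whose called members were mostly lower, where all 4 medians are positive, then negative, then positive, as for touch and calcium genes at 2.87, -1.89 and 1.91.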

How the data were processed

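Ratios came from 12 arrays of 2 colours, and 4 of them paired day 4 with day 2. The deposited series table holds log10 ratios of Cy5 over Cy3 that the authors obtained from scanner software (per the file headers, Feature Extraction 10.5.1.1), which itself corrects background and dye bias. The deposited scanner files hold spot intensity for each channel and marks for outlier and well-above-background spots. Ratios were turned to the later day over the earlier by the dyes in the labels and put on the log2 scale, and loci were read from the first 9 characters of the probe annotation, which follows TAIR8 gene models. Of 43643 probes, 28247 reached the well-above-background mark in 50% or more of a time point's channels and were tested, 1158 of them without a locus, and 718 spots marked as outliers were left out.

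A linear model with 1 coefficient for each step and a dye term for each probe was fitted over all 12 arrays (limma 3.58.1, R 4.3.3, moderation with intensity trend, 8 residual degrees of freedom). Resolver, named in the methods of the study, was not used here. Calling a probe took 1.8-fold and an adjusted p under 0.05, calling a gene took 1 such probe, and values are those of the brightest probe. Tests of differences between steps used 1 difference for each replicate set. The same fit was also run on simulated data with the fitted spread of each probe and independent errors, which do not model the shared extracts. Labels do not say whether the 4 sets came from separate plantings, so p-values measure the spread between these samples, and their number limits the precision.

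Genes named are the 12 largest changes of each direction among genes detected in at least 50% of the channels of each day. Those 12 were taken among genes called by the brightest probe with the same sign on all 4 arrays. Named genes include the 6 largest level ratios of each direction among genes detected on 1 day and the 6 largest differences from each neighbouring step. Called members of the gene lists are also named, with those needed to describe a list. The members and lists were chosen with earlier results of these data known. The scanner files of 2 arrays of day 0 and day 2 did not match the series table (16.3% and 20.2% of probes the same) and were not used for signals, whereas 99.98% to 99.99% of probes matched on the 4 arrays of day 2 and day 4. Gene symbols came from the RefSeq table of TAIR10.1. Promoter motifs were planned and not run, since no promoter sequences were used here.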

Additional observations from a re-analysis of the deposited data

Results flagged for a closer look

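Of 224 sets of 4 array values examined, 11 held an array far from the other 3, as chance does in about 1 of 20 such sets. In AT3G16530 set 1 gave -4.13, against -4.74 to -4.67 on the others, in NDB4 -2.13 against -1.24 to -1.07, in WRKY50 -2.33 against -2.16 to -2.14, and in GSTF6 -2.71 against -3.69 to -3.57. Set 2 gave 0.44 for AP3, against 1.19 to 1.29, 0.50 for AG, against 1.14 to 1.24, and 1.44 for NGA1, against 1.88 to 1.90. Set 3 gave 0.59 for AT1G15160, against 2.17 to 2.41. Set 4 gave 1.36 for GA20OX2, against 1.04 to 1.06, -0.50 for WRKY66, against -1.34 to -1.22, and 0.67 for EXPA15, against 1.29 to 1.34.

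The change from day 2 to day 4 differed from that of day 0 to day 2 at 4391 loci and from that of day 4 to day 8 at 4618 loci, by the test of the difference within sets. The largest differences from day 0 to day 2 were 5.87 for AT4G16270, 5.45 for RTFL13, 4.85 for AT5G62280, 4.59 for SPL, 4.58 for bHLH39, 4.58 for AT1G70270, -14.5 for PHT3;2, -14.1 for AT2G23270, -13.7 for AT3G16530, -13.2 for ERF1, -13.1 for AOX1D and -12.9 for AT4G28460. Those from day 4 to day 8 were 5.13 for ABCG35, 4.80 for AT2G28780, 4.32 for FTM1, 4.22 for bZIP42, 4.13 for AT1G08440, 3.66 for AT4G14819, -12.7 for DIN11, -11.7 for AT1G76470, -11.2 for GSTU3, -9.81 for AT1G10585, -9.46 for NATA1 and -9.29 for GSTL1.

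Among the 1158 tested probes without a locus, which the gene counts leave out, 18 were called higher at day 4 and 30 lower.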

How the results depend on the processing

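Counts of genes called, higher and lower, kept within 1.5 times under the fit of the 4 arrays alone, no dye term, slide as a random block, array medians set to 0, no intensity trend, the test against 1.2-fold, no or another filter on dim probes, marked spots kept, the brightest probe alone and, chosen after seeing the data, without the array with most marked spots or without the 2 arrays whose files do not match. With the replicate block 1881 genes were called (687 higher, 1194 lower), and without the replicate block the step differences numbered 4472 against the step before and 4772 against the step after, in place of 4391 and 4618. Arrays of 1 number in neighbouring steps share an extract, and their deviations correlated with r from -0.37 to -0.26 for the first pair of steps and from -0.23 to -0.04 for the second. The block ended the call of 3 of 222 named genes (CBF1, WRKY59 and GSTF12). Leaving out 1 set gave 1757 to 1965 genes called, 586 to 741 higher and 1091 to 1224 lower, a median change of 0.05 to 0.06, 3698 to 4270 differences from the step before and 4068 to 4758 from the step after.

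Without the fold minimum 6006 genes were called (3448 higher, 2557 lower), and with array medians also set to 0, chosen after seeing the data, 5519 (2564 and 2954). Normexp and loess gave 415 (45 and 370), loess without background correction 1176 (263 and 913) and normexp with median centring 330 (55 and 275). Over all tested probes the median was 0.055, against 0.00998 with array medians set to 0 and 0.012 with normexp and loess. Requiring 3 of 4 against at most 1 of 4 channels gave 119 loci detected at day 4 only and 169 at day 2 only, and requiring the other hybridisation of the extracts as well gave 7 and 18. Of the named genes 160 lost their call with normexp and loess, 61 with loess alone and 149 with normexp and median centring, where WRKY59 also turned sign at 0.075. Of 30 lists, 26 changed their count of calls by over 1.5 times with normexp and loess and 6 with loess alone. Normexp added an offset of 50 to every channel, while loess alone added none. The part of the offset and of low signal in these lost calls was not tested. The scanner files gave median and not mean signals. Promoter motifs were not run.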
